A study of Mus musculus with 11 samples.

Results

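Lymphatic endothelial cells (LECs), the cells that line lymphatic vessels, were compared after growth alone and after co-culture with HaCa4 skin carcinoma cells, and the genes described here are 72 of the 191 genes listed for LECs. Genes were selected on their measured TPM (transcript abundance scaled to the same total in every library), and a gene was included when its TPM in each of the 3 LEC-sorted libraries exceeded all 3 LEC control libraries. Genes also listed for HaCa4 were left out, as was a set of 36 genes given by name, which holds chemokines, colony-stimulating factors, NF-kappaB subunits and other genes of the same list. The remaining genes range from metal-handling proteins and complement to solute carriers and chaperones. Because the choice rested on the comparison of LEC-sorted with LEC control, the differences are given as descriptions, with their errors and without a p-value.

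The 11 RNA libraries were 3 of LEC control, 3 of LEC-sorted, 3 of HaCa4-sorted and 2 of HaCa4 control, and the 6 LEC libraries carry the results below. LEC control cells were imLEC grown in single culture, and LEC-sorted cells were imLEC taken out of a co-culture with HaCa4 after 24 h. HaCa4 is a mouse skin squamous carcinoma line. All LECs carry the Immortomouse transgene H-2Kb-tsA58, which gives a thermolabile SV40 large T antigen under interferon-gamma and a permissive temperature, so the LECs of both groups are conditionally immortal cells and not primary ones. More than a single LEC clone was in use in the study, and the clone behind each library is not given in the sources used here. The co-cultured LECs were stained for CD31, an endothelial surface protein, and sorted away from HaCa4 cells carrying the dye CFSE. Nothing in the sources used here says that the LEC control cells were sorted, so the effect of co-culture and that of staining and sorting cannot be told apart. Nothing says either that the replicates were separate cultures, so their spread may be technical. The paper describes different media for LECs and HaCa4. An effect of medium, temperature or interferon-gamma, had these differed between single culture and co-culture, could also not be told apart.

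Lymphatic endothelium drains tissue fluid and guides leukocytes, and like other endothelium it answers cytokines by making adhesion molecules, chemokines and acute-phase proteins. The transcription factor families NF-kappaB, C/EBP and AP-1 drive much of that answer, and the same answer includes its own brakes, such as inhibitors of cytokine receptors and nucleases that destroy cytokine mRNA. Iron and copper handling is part of innate defence, since microbes and dividing cells compete with the host for metals. Solute carriers, polyamine synthesis and chaperones serve growing or stressed cells.

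Among the 191 listed genes, 122 (63.9%) were raised in LEC-sorted without overlap, and the 72 genes are what remained of these after 36 were left out by name and 14 because they were also listed for HaCa4. The study had listed the genes because they differed on these same libraries, so a gene's presence and its direction are not independent evidence. Of the 72 genes, 11 had a mean below 1 TPM in LEC control, 19 between 1 and 10, 33 between 10 and 100, and 9 of 100 or more. The difference in mean log2(TPM + 1) between LEC-sorted and LEC control, called log2 difference from here on, ranged from 0.54 to 4.73 with a median of 1.04 and a median standard error (SE) of 0.24. It was at least 1 for 38 genes and at least 2 for 8 genes. For the 50 other LEC genes raised without overlap, the median was 1.30 and the highest value 7.19, and for all 191 listed genes the median was 0.87. The lowest sorted library stood a median of 1.48 times above the highest control library for the 72 genes and 1.76 times for the 50 others. All of these TPM values come from bulk RNA, in which more cells with a transcript and more transcript per cell cannot be told apart.

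**Figure D1:**
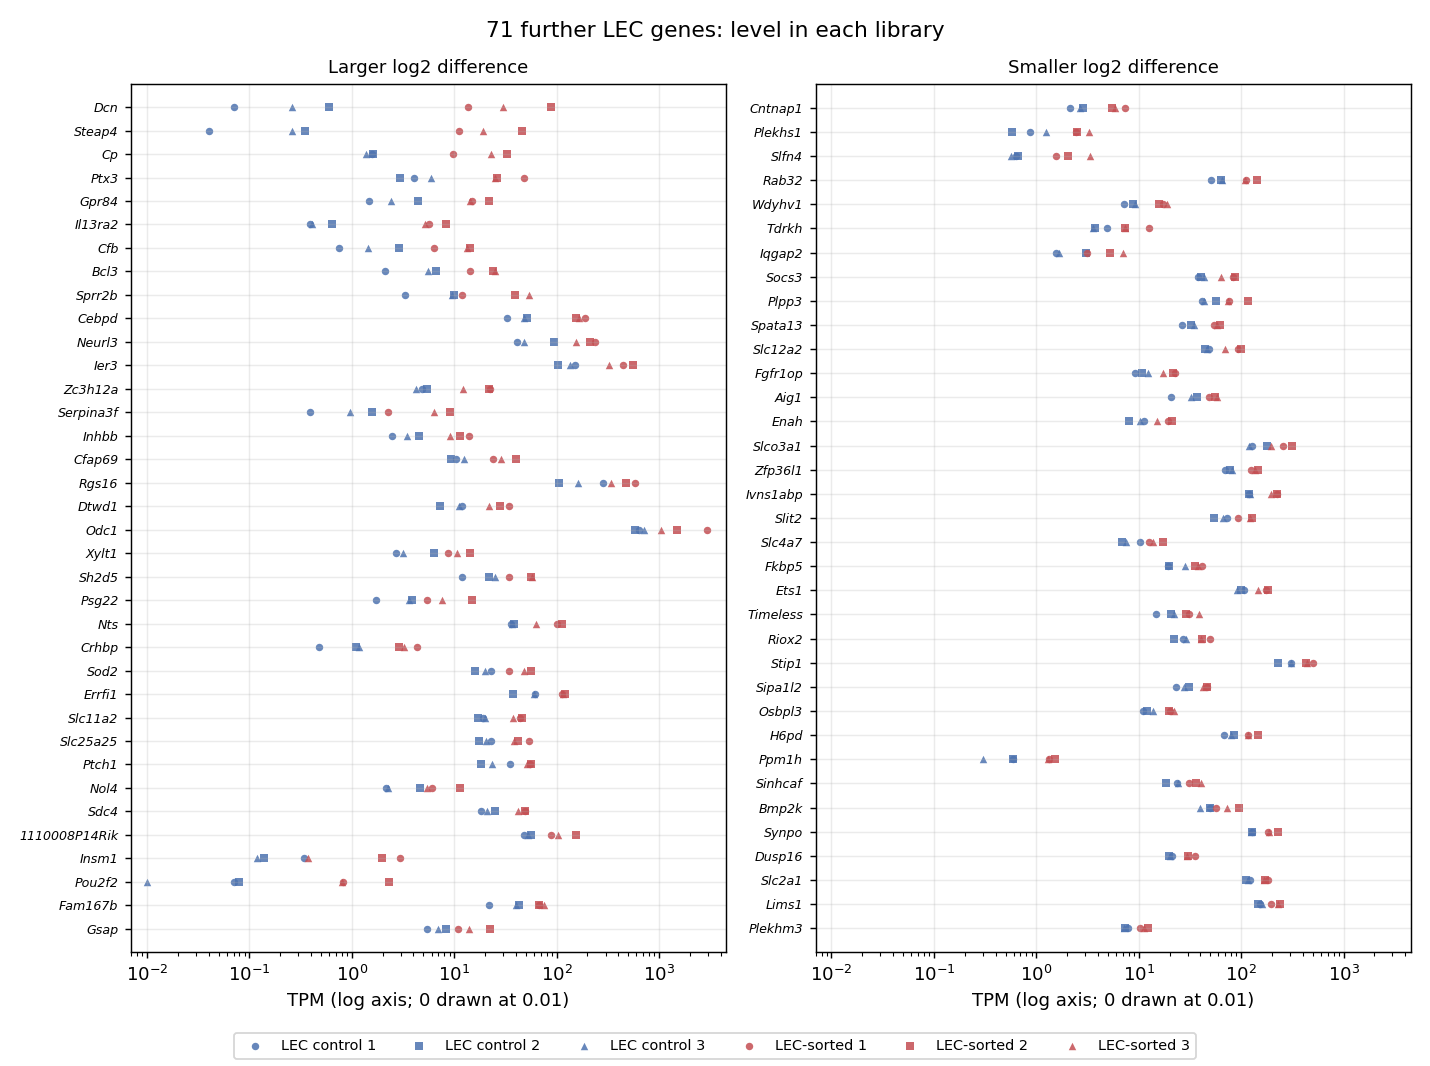
TPM on a log axis of 71 of the 72 genes in every LEC library, with LEC control in blue and LEC-sorted in red, 1 symbol per replicate, and genes ordered by log2 difference from *Dcn* (4.73) at the top left to *Plekhm3* (0.54) at the bottom right. The red points lie right of the blue points in every row, as the choice of the genes requires, and the distance between them shrinks down the columns.

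Summed over the 72 genes, the level was 3233.75, 3048.89 and 3293.78 TPM in LEC control 1 to 3, and 8217.84, 7342.45 and 5786.05 TPM in LEC-sorted 1 to 3. The genes therefore held 0.323%, 0.305% and 0.329% of the total TPM in the control libraries and 0.822%, 0.734% and 0.579% in the sorted ones. The separation of the sums follows from the choice of the genes, and among the sorted libraries LEC-sorted 3 had the lowest sum. A large part of the sum was *Odc1* alone. Without it the sum was 2551 ± 68.6 TPM in LEC control (SD, n = 3) and 5294 ± 553 TPM in LEC-sorted. The values stand as deposited, and the median TPM over all listed genes was itself 22.95 to 25.83 in LEC control and 33.78 to 41.56 in LEC-sorted. When the libraries were scaled to a common median over these genes, the log2 differences shifted by a median of -0.61, 69 of the 72 log2 differences stayed above 0 and 35 genes stayed free of overlap, while *Slc2a1*, *Lims1* and *Plekhm3* fell just below 0.

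The largest log2 difference belonged to *Dcn* (decorin), which encodes a small proteoglycan that binds collagen fibrils and is best known as a fibroblast product. *Dcn*, on chromosome 10 from 97479500 to 97518163 (GRCm38.p6), was at 0.07, 0.60 and 0.26 TPM in LEC control and at 13.56, 88.88 and 30.08 TPM in LEC-sorted (log2 difference 4.73, SE 0.61). It was near 0 in every control library and highest in LEC-sorted 2, with a SD of 39.6 TPM around a sorted mean of 44.2 TPM. Of the 5 fibroblast markers examined, *Dcn* was the only one listed for LECs, and the other 4 were not analysed here.

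Genes of copper, iron and oxidative metabolism followed. The functional lists used from here on leave out the 36 genes set aside by name, and a list's count rests on genes that the study chose on these libraries. Each count of raised genes is to be read beside the 63.9% of all 191 listed genes that were raised without overlap. Of 37 genes on a list for metals and oxidative stress, 6 were listed for LECs, of which 3 were raised and belong here (*Steap4*, *Cp* and *Sod2*) and 3 were lower in LEC-sorted (*Ftl1*, *Hmox1* and *Srxn1*). *Steap4*, a metalloreductase that reduces iron and copper before uptake, lies on chromosome 5 from 7960472 to 7982213. Its level was 0.04, 0.35 and 0.26 TPM in LEC control and 11.05, 45.91 and 18.95 TPM in LEC-sorted (log2 difference 4.21, SE 0.48). Like *Dcn*, it was almost absent from the control libraries, and LEC-sorted 2 held the most. *Cp* (ceruloplasmin), the copper-carrying ferroxidase of plasma and an acute-phase protein, is on chromosome 3 from 19956933 to 20009750. *Cp* had 1.59, 1.60 and 1.37 TPM in LEC control against 9.67, 33.09 and 22.84 TPM in LEC-sorted (log2 difference 3.03, SE 0.42). The control libraries were nearly equal while the sorted ones spread over more than 20 TPM, again with LEC-sorted 2 highest and LEC-sorted 1 lowest. *Sod2*, the mitochondrial superoxide dismutase, rose from 22.72, 15.91 and 20.06 TPM to 34.19, 56.56 and 47.65 TPM (log2 difference 1.18, SE 0.24). It was a gene of moderate level in every library, and its sorted libraries stood in the same order as those of *Steap4* and *Cp*. *Slc11a2*, the divalent metal transporter that brings iron into cells, is counted below with the solute carriers.

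**Figure D2:**
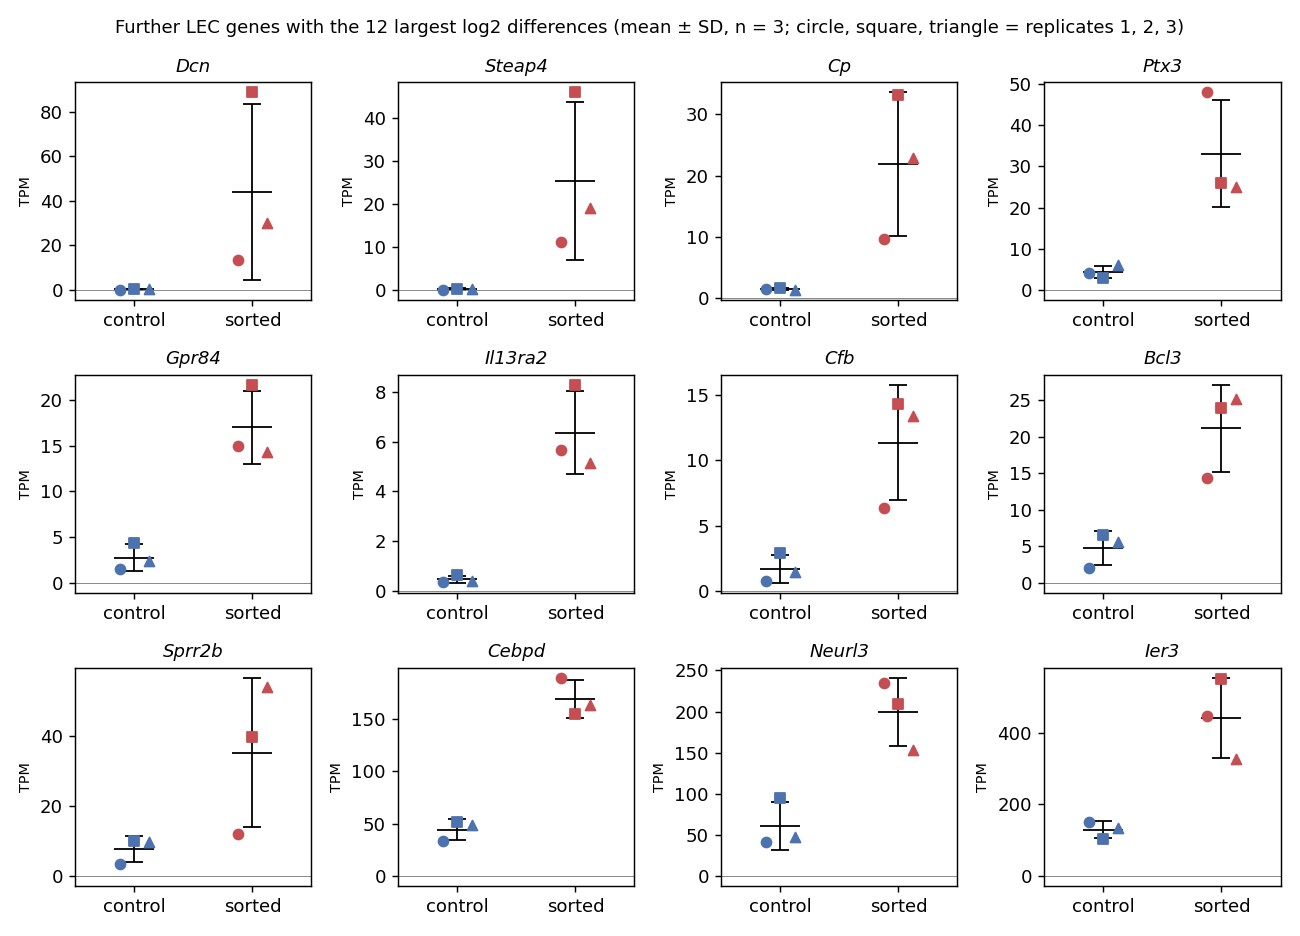
TPM in LEC control and LEC-sorted for the 12 genes with the largest log2 difference, 1 point per library with the mean as a horizontal line and the SD as an error bar (n = 3 per group), each panel on its own linear axis with a grey line at 0. The panels run from *Dcn* (0.31 to 44.2 TPM) to *Ier3* (129.7 to 442.4 TPM), and the sorted points spread widely for *Dcn*, *Steap4*, *Cp* and *Sprr2b* and narrowly for *Cebpd*.

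The list of innate defence, antigen presentation and complement held 67 genes, of which only *Ptx3* and *Cfb* were listed for LECs, and both were raised. Other genes of such roles that were listed for LECs but not on that list went both ways. *C3*, left out by name, was higher in LEC-sorted (log2 difference 2.31, SE 0.56), while *H2-DMa* (-1.21, SE 0.27) and *Masp1* (-0.59, SE 0.17) were lower. *Ptx3* encodes pentraxin 3, a soluble pattern recognition molecule, on chromosome 3 from 66219887 to 66225806. It had 4.06, 2.95 and 5.98 TPM in LEC control and 48.00, 26.07 and 24.95 TPM in LEC-sorted (log2 difference 2.65, SE 0.33). Here LEC-sorted 1 was the highest library, unlike for the metal genes. *Cfb*, complement factor B of the alternative pathway, on chromosome 17 from 34856374 to 34862514, went from 0.75, 2.87 and 1.44 TPM to 6.31, 14.36 and 13.43 TPM (log2 difference 2.21, SE 0.41). Its lowest sorted library was LEC-sorted 1, and the highest control library, LEC control 2, reached less than 3 TPM.

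The list of receptors and other membrane signalling proteins held 66 genes, and the 2 that were listed for LECs, *Gpr84* and *Rgs16*, were both raised. *Gpr84*, a G protein-coupled receptor for medium-chain fatty acids, lies on chromosome 15 from 103308233 to 103310670 and stood at 1.48, 4.41 and 2.41 TPM in LEC control and 15.01, 21.64 and 14.37 TPM in LEC-sorted (log2 difference 2.31, SE 0.34). The sorted libraries were within 8 TPM of each other and all more than 3 times the highest control. *Rgs16*, which ends signalling by G proteins and is not itself a receptor, had 282.16, 106.48 and 161.60 TPM in LEC control and 578.96, 470.33 and 338.18 TPM in LEC-sorted (log2 difference 1.41, SE 0.36). LEC control 1 was well above the other control libraries for *Rgs16*, so the gap to the lowest sorted library was only 1.20-fold. Outside that list, *Il13ra2*, the high-affinity receptor that binds IL-13 and is known as a decoy, on chromosome X from 147383478 to 147429192, was at 0.39, 0.64 and 0.41 TPM and then at 5.68, 8.26 and 5.14 TPM (log2 difference 2.29, SE 0.26). Its levels were low throughout, and the nearest libraries of the groups were 8.03-fold apart.

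Regulators of NF-kappaB and cytokine signalling came next. Of 52 genes on the list of NF-kappaB and tumour necrosis factor regulators, 4 were listed for LECs and all 4 were raised; *Bcl3* and *Zc3h12a* are among the 72 genes, while *Tnfrsf9* and *Ikbke* were left out because they were also listed for HaCa4. *Bcl3*, an inhibitor-like protein that binds NF-kappaB dimers in the nucleus, on chromosome 7 from 19808462 to 19822824, had 2.10, 6.60 and 5.55 TPM in LEC control and 14.34, 23.89 and 25.19 TPM in LEC-sorted (log2 difference 2.01, SE 0.40). Replicate 1 was the lowest library in both groups. *Zc3h12a*, also called Regnase-1, a ribonuclease that degrades cytokine mRNAs, rose from 4.83, 5.47 and 4.25 TPM to 22.22, 21.79 and 12.28 TPM (log2 difference 1.72, SE 0.28). The control libraries lay within about 1 TPM of each other, and LEC-sorted 3 was the lowest of the sorted ones. *Neurl3*, a ubiquitin ligase of the Neuralized family, on chromosome 1 from 36264602 to 36274674, went from 40.57, 94.27 and 47.49 TPM to 234.68, 209.50 and 153.61 TPM (log2 difference 1.77, SE 0.33).

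The list of growth control, apoptosis and kinase feedback held 63 genes, of which 4 were listed for LECs, and these 4 were all raised and belong here. *Ier3*, an immediate early gene that modulates cell survival, on chromosome 17 from 35821713 to 35822911, had 150.30, 103.60 and 135.22 TPM in LEC control and 447.72, 551.91 and 327.46 TPM in LEC-sorted (log2 difference 1.75, SE 0.24). *Errfi1*, an inhibitor of the epidermal growth factor receptor, went from 61.85, 37.74 and 59.91 TPM to 112.59, 121.82 and 115.76 TPM (log2 difference 1.15, SE 0.21). Its sorted libraries were the closest of all 72 genes relative to their mean, with a coefficient of variation of 4.02%. *Socs3*, which inhibits receptors of the IL-6 family, rose from 38.07, 40.69 and 43.39 TPM to 83.28, 86.68 and 64.22 TPM (log2 difference 0.91, SE 0.17). *Dusp16*, a phosphatase of MAP kinases, changed least of the 4, from 20.99, 19.69 and 20.32 TPM to 35.68, 30.18 and 29.59 TPM (log2 difference 0.62, SE 0.17). Each of the 4 encodes a protein known mainly as an inhibitor or modulator of signalling.

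On the transcription factor list, 5 of 69 genes were listed for LECs, of which *Cebpd*, *Zfp36l1* and *Ets1* were raised and *Id2* and *Rcan1* were lower in LEC-sorted. *Rcan1* was on that list although it encodes a calcineurin inhibitor and not a transcription factor. *Cebpd*, a C/EBP factor of the acute-phase response, on chromosome 16 from 15887286 to 15889545, had 32.94, 51.10 and 48.33 TPM in LEC control and 189.20, 154.88 and 163.72 TPM in LEC-sorted (log2 difference 1.94, SE 0.20). It combined a large difference with a narrow spread, with a coefficient of variation of 10.5% among the sorted libraries. *Ets1*, a factor of endothelial gene expression, went from 106.27, 98.92 and 91.41 TPM to 173.46, 183.92 and 144.79 TPM (log2 difference 0.75, SE 0.15). *Zfp36l1* was placed on that list for its zinc fingers, although the protein binds mRNA and speeds its decay. Its level was 69.49, 77.42 and 80.60 TPM in LEC control and 125.45, 145.90 and 135.04 TPM in LEC-sorted (log2 difference 0.83, SE 0.14). Outside the list, *Pou2f2* (Oct-2) and *Insm1*, transcription factors best known from lymphocytes and from neuroendocrine cells, were at or below 0.34 TPM in every LEC control library. *Pou2f2* was listed at 0.07, 0.08 and 0.00 TPM and then at 0.82, 2.30 and 0.81 TPM.

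By rise in mean TPM, the order was different, with *Odc1* first at 1180 TPM, followed by *Ier3* (313 TPM), *Rgs16* (279 TPM), *Stip1* (177 TPM), *Neurl3* (138 TPM) and *Cebpd* (125 TPM). *Odc1*, ornithine decarboxylase, the rate-limiting enzyme of polyamine synthesis, lies on chromosome 12 from 17544808 to 17551502. It had 634.67, 576.41 and 712.17 TPM in LEC control and 2922.22, 1496.03 and 1045.54 TPM in LEC-sorted (log2 difference 1.38, SE 0.36). LEC-sorted 1 was nearly 3 times LEC-sorted 3. *Odc1* and *Ass1*, the latter lower in LEC-sorted, were the only 2 of 45 genes of the glycolysis, nucleotide and amino acid list that were listed for LECs. *Stip1*, a co-chaperone that links HSP70 and HSP90, went from 303.68, 227.76 and 305.37 TPM to 500.95, 427.29 and 440.71 TPM (log2 difference 0.72, SE 0.17). *Fkbp5*, a co-chaperone of steroid receptors, had 19.5, 19.89 and 28.37 TPM against 41.56, 35.25 and 38.08 TPM.

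**Figure D3:**
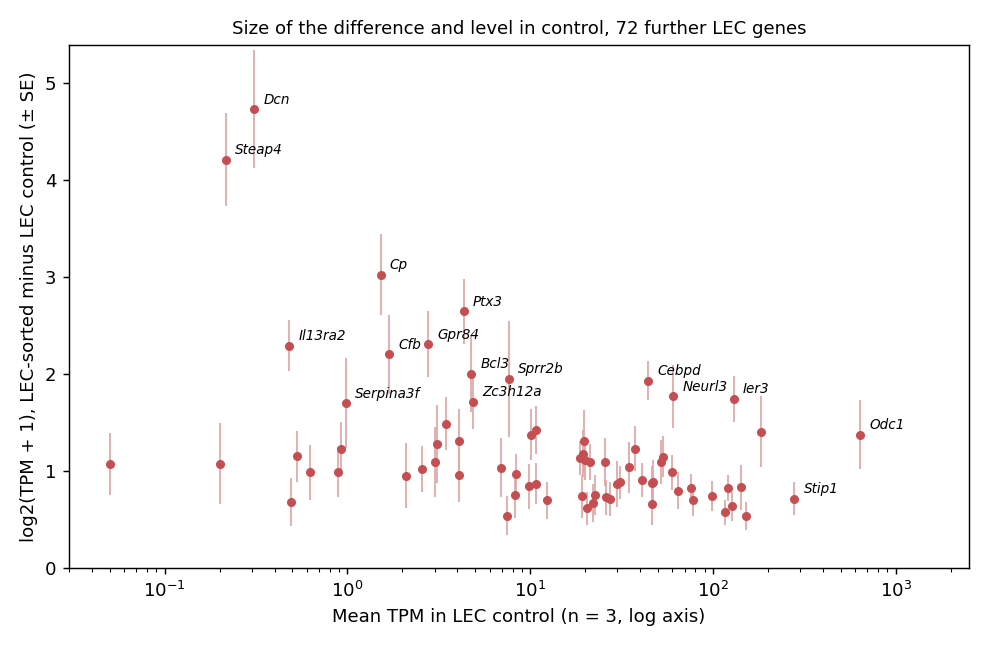
Log2 difference of each of the 72 genes with its SE against the mean TPM in LEC control (log axis, n = 3 per group). The 3 largest differences, *Dcn*, *Steap4* and *Cp*, lie at control means of 0.31, 0.22 and 1.52 TPM, and the gene of the highest control mean, *Odc1* (641 TPM), has a log2 difference of 1.38.

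Of 45 solute carriers and channels on a list, 5 were listed for LECs, and all 5 were raised and belong here, with log2 differences of 0.58 to 1.14. Among all 191 listed genes 63.9% were raised without overlap. *Slc11a2* rose from 19.17, 17.06 and 19.77 TPM to 43.41, 45.75 and 37.62 TPM (log2 difference 1.14, SE 0.17). *Slc12a2*, the sodium, potassium and chloride cotransporter, had 48.63, 44.09 and 46.85 TPM in LEC control and 92.18, 99.65 and 69.65 TPM in LEC-sorted (log2 difference 0.88, SE 0.18). *Slco3a1*, an organic anion transporter, was at 127.12, 177.70 and 120.55 TPM and then at 254.92, 313.81 and 194.62 TPM (log2 difference 0.83, SE 0.23). The groups of *Slc11a2* stood well apart, whereas the lowest sorted library of *Slco3a1* was only 1.10-fold above LEC control 2. *Slc4a7*, a bicarbonate transporter, had 10.28, 6.85 and 7.56 TPM against 12.52, 17.30 and 13.73 TPM (log2 difference 0.76, SE 0.24). *Slc2a1*, the glucose transporter GLUT1, went from 121.55, 110.42 and 115.62 TPM to 182.68, 170.09 and 166.66 TPM (log2 difference 0.58, SE 0.13), a difference that became -0.05 after the scaling. *Slc25a25*, a mitochondrial carrier of adenine nucleotides that was not on the list, had 22.67, 17.30 and 20.20 TPM in LEC control and 53.91, 42.04 and 38.44 TPM in LEC-sorted. Other carriers outside the list went both ways. *Slco4a1*, also listed for HaCa4, was higher in LEC-sorted (log2 difference 1.31, SE 0.22), and *Slc1a4* was lower (log2 difference -1.25, SE 0.34). The list of lipid enzymes held 37 genes, and the only member listed for LECs was *Plpp3*, a lipid phosphate phosphatase that breaks down lysophosphatidic acid. *Plpp3* rose from 41.37, 56.30 and 43.51 TPM to 76.05, 116.79 and 75.16 TPM (log2 difference 0.89, SE 0.23).

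Proteases, their inhibitors and matrix proteins made up a list of 59 genes, of which 6 were listed for LECs. *Serpina3f* and *Sdc4* are among the 72 genes. The raised *Mmp13* and *Mmp3* were left out as they were also listed for HaCa4, and *Timp2* and *Timp3* were lower in LEC-sorted. *Serpina3f*, a serine protease inhibitor of a cluster of near-identical copies, on chromosome 12 from 104214544 to 104221129, was at 0.39, 1.59 and 0.95 TPM and then at 2.27, 9.04 and 6.41 TPM (log2 difference 1.70, SE 0.46). Its replicates were ordered 2, 3, 1 from high to low in both groups. *Sdc4*, the heparan sulphate proteoglycan syndecan 4, had 18.39, 24.74 and 20.72 TPM in LEC control and 48.61, 49.06 and 41.76 TPM in LEC-sorted (log2 difference 1.10, SE 0.18). *Xylt1*, the xylosyltransferase that starts the sugar chains of such proteoglycans, went from 2.72, 6.36 and 3.13 TPM to 8.70, 14.36 and 10.62 TPM.

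Secreted signals and their receptors were mostly outside the lists, since the list of 49 cytokines, chemokines and other secreted signals held only *Lif* among the genes listed for LECs. *Lif* was raised but also listed for HaCa4. Secreted signals listed for LECs but not on that list went both ways. *Cxcl3*, also listed for HaCa4, was higher in LEC-sorted (log2 difference 4.39, SE 0.65), while *Bmp6* (-1.09, SE 0.30) and *Gas6* (-0.92, SE 0.28) were lower. The secreted signals and receptors among the 72 genes were at low to middle levels. *Inhbb*, the beta B subunit of activin and inhibin, had 2.48, 4.49 and 3.44 TPM in LEC control and 13.92, 11.44 and 9.18 TPM in LEC-sorted (log2 difference 1.49, SE 0.27). *Nts*, the neurotensin precursor, had nearly equal control libraries of 36.10, 38.50 and 37.01 TPM and sorted libraries of 100.19, 112.16 and 62.35 TPM (log2 difference 1.23, SE 0.23). *Slit2*, the guidance ligand of Robo receptors, went from 73.13, 54.10 and 66.47 TPM to 92.75, 126.21 and 120.62 TPM (log2 difference 0.80, SE 0.19). Each of these 3 genes encodes a secreted ligand or a subunit of one, and the order of the sorted libraries differed among them. *Ptch1*, the Hedgehog receptor and a target of that pathway, rose from 35.34, 18.22 and 23.22 TPM to 54.32, 56.39 and 51.45 TPM (log2 difference 1.10, SE 0.25). *Crhbp*, a binding protein of corticotropin-releasing hormone, stayed under 5 TPM in every library. *Crhbp* was at 0.48, 1.11 and 1.18 TPM and then at 4.36, 2.90 and 3.23 TPM.

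*Sprr2b*, a small proline-rich protein of the cornified envelope of skin, on chromosome 3 from 92316705 to 92318085, is another gene of a family with near-identical copies. It had 3.27, 10.02 and 9.57 TPM in LEC control and 12.03, 39.47 and 53.87 TPM in LEC-sorted (log2 difference 1.95, SE 0.60). The SE was the largest of the 72 genes except for *Dcn*, and replicate 1 was low in both groups. *Psg22*, a pregnancy-specific glycoprotein, and *Slfn4*, of the Schlafen family, also belong to families of similar genes. *Psg22* went from 1.73, 3.88 and 3.62 TPM to 5.47, 14.84 and 7.64 TPM, and *Slfn4* from 0.64, 0.66 and 0.57 TPM to 1.56, 2.03 and 3.33 TPM. For these 4 genes the way the authors' counting shared reads between copies is not given in the sources used here.

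The actin cytoskeleton and adhesion list of 53 genes had no gene listed for LECs, although the 72 genes include several with such roles that the list did not hold. *Lims1*, an adaptor of integrin signalling, had the second lowest log2 difference (0.54), with 151.02, 146.00 and 158.74 TPM against 196.83, 239.41 and 230.26 TPM, and it became -0.09 after the scaling. *Synpo* (synaptopodin), an actin-associated protein, had control libraries of 126.80, 126.63 and 125.74 TPM, the tightest of all 72 genes relative to their mean, and sorted libraries of 182.16, 227.32 and 184.87 TPM. *Enah*, an actin polymerisation factor, and *Spata13*, a guanine nucleotide exchange factor, had log2 differences of 0.84 and 0.89. Listed LEC genes of such roles outside the 72 genes went both ways. *Vim* (log2 difference -0.60, SE 0.21), *Baiap2* (-0.63, SE 0.16) and *Parvb* (-0.46, SE 0.18) were among those lower in LEC-sorted, while *Vcam1*, left out by name, was higher (1.12, SE 0.21).

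The other genes without a list were *Cfap69*, *Dtwd1*, *Sh2d5*, *Nol4*, *1110008P14Rik*, *Fam167b*, *Gsap*, *Cntnap1*, *Plekhs1*, *Rab32*, *Wdyhv1*, *Tdrkh*, *Iqgap2*, *Fgfr1op*, *Aig1*, *Ivns1abp*, *Timeless*, *Riox2*, *Sipa1l2*, *Osbpl3*, *H6pd*, *Ppm1h*, *Sinhcaf*, *Bmp2k* and *Plekhm3*. Their log2 differences lay between 0.54 for *Plekhm3* and 1.43 for *Cfap69*. *Ivns1abp*, a kelch-repeat protein, had the smallest SE among these (0.13), with control libraries of 118.39, 120.28 and 122.34 TPM and sorted libraries of 221.79, 224.93 and 197.48 TPM. *Ppm1h*, a protein phosphatase, stayed under 2 TPM in all 6 libraries, at 0.59, 0.59 and 0.30 TPM and then at 1.34, 1.53 and 1.30 TPM. *Cfap69*, a protein of cilia and flagella, rose from 10.31, 9.40 and 12.37 TPM to 23.86, 40.55 and 28.66 TPM (log2 difference 1.43, SE 0.25), and *Dtwd1*, a tRNA-modifying enzyme, from 12.01, 7.29 and 11.16 TPM to 34.35, 27.71 and 21.73 TPM (log2 difference 1.38, SE 0.27). These were the largest differences of the group, and the highest sorted library was LEC-sorted 2 for the former and LEC-sorted 1 for the latter. *Rab32*, a small GTPase of lysosome-related organelles, went from 50.72, 63.89 and 65.24 TPM to 110.84, 141.32 and 108.39 TPM, and *Gsap*, an activator of gamma-secretase, from 5.41, 8.29 and 6.95 TPM to 10.87, 22.18 and 13.83 TPM. *Cntnap1*, a contactin-associated membrane protein, had 2.12, 2.87 and 2.65 TPM in LEC control and 7.29, 5.48 and 5.86 TPM in LEC-sorted. *Iqgap2*, a scaffold of the IQGAP family, and *Slco3a1* above are the genes with the narrowest gap between the groups, apart from *Insm1*. *Timeless*, a protein of the replication fork, was at 14.88, 20.87 and 22.19 TPM and then at 30.64, 29.13 and 38.68 TPM, with LEC-sorted 3 highest. *H6pd*, which makes NADPH inside the endoplasmic reticulum, went from 68.32, 84.16 and 79.45 TPM to 116.49, 146.12 and 117.18 TPM. *Osbpl3*, an oxysterol-binding related protein, had 10.91, 12.03 and 13.91 TPM against 20.14, 19.60 and 21.89 TPM. In all, 25 of the 72 genes were on one of the 12 lists and 47 on none.

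The genes nearest the limit of the choice show how close it was. Just inside it were *Iqgap2*, with a lowest sorted library of 3.09 TPM above a highest control of 3.05 TPM, *Insm1*, with 0.37 TPM above 0.34 TPM, and *Slco3a1*, with 194.62 TPM above 177.70 TPM. Just outside it were *Pitx1*, whose lowest sorted and highest control libraries were both at 0.05 TPM, *Padi3*, with 0.11 TPM below 0.12 TPM, and *Gm8210*, with 0.39 TPM below 0.50 TPM. For *Insm1* the sorted libraries ranged from 0.37 to 2.98 TPM, so its inclusion was decided by LEC-sorted 3.

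The sorted libraries differed from each other in a gene-dependent way. LEC-sorted 2 was the highest for 40 of the 72 genes (55.6%), LEC-sorted 1 for 20 and LEC-sorted 3 for 12. LEC-sorted 1 and LEC-sorted 3 were the lowest for 30 and 33 genes, and LEC-sorted 2 for 9. The most frequent order, LEC-sorted 2 above 3 above 1, was that of 21 genes, *Dcn*, *Steap4*, *Cp*, *Cfb*, *Serpina3f*, *Sod2* and *Errfi1* among them. In 19 genes, such as *Gpr84*, *Il13ra2*, *Ier3* and *Socs3*, the order was 2 above 1 above 3. The 14 genes with LEC-sorted 1 highest and LEC-sorted 3 lowest included *Ptx3*, *Neurl3*, *Zc3h12a*, *Inhbb*, *Rgs16* and *Odc1*. For the 50 other raised LEC genes, LEC-sorted 2 was highest for 32 and LEC-sorted 3 lowest for 34.

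**Figure D4:**
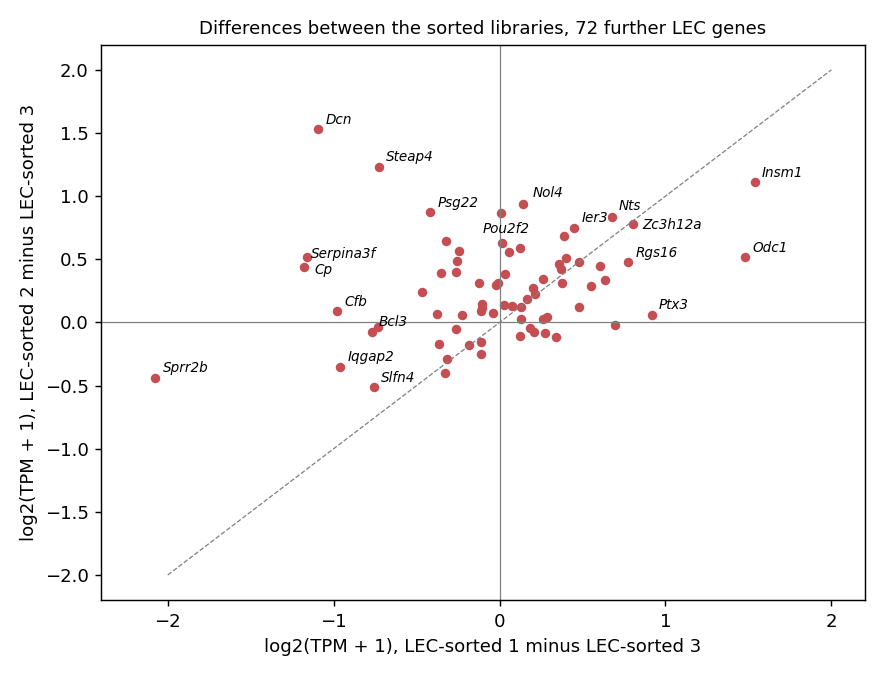
Difference in log2(TPM + 1) of LEC-sorted 1 (horizontal) and LEC-sorted 2 (vertical) from LEC-sorted 3, 1 point for each of the 72 genes, with a dashed line where LEC-sorted 1 and 2 are equal. *Dcn*, *Steap4*, *Cp* and *Serpina3f* lie in the upper left, where LEC-sorted 1 is lowest and 2 highest, *Sprr2b* lies far left, and *Odc1* and *Ptx3* lie right of the dashed line, where LEC-sorted 1 is highest.

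Markers of the cells in the co-culture were set beside these orders. Of 16 lymphatic endothelial markers only *Pdpn* and *Kdr* were listed for LECs, and the others were not analysed here. They differed in opposite directions, *Pdpn* being higher in LEC-sorted (log2 difference 1.28, SE 0.30) and *Kdr* lower, at 147.29, 171.50 and 136.83 TPM in LEC control and 88.48, 97.37 and 116.71 TPM in LEC-sorted (log2 difference -0.59, SE 0.17). Their summed level was 268.51 to 316.13 TPM in LEC control and 355.79 to 524.40 TPM in LEC-sorted. Of 25 keratinocyte and carcinoma markers only *Krt8* was listed, at 0 TPM in every LEC control library and at 0.19, 2.19 and 0.89 TPM in LEC-sorted, against 283.80 and 380.41 TPM in the HaCa4 control libraries. The *Krt8* levels in LEC-sorted amount to 0.0572%, 0.659% and 0.268% of the HaCa4 control mean. They stand in the order 2 above 3 above 1. *Cxcl3*, *Mmp13* and *Tnfrsf9* were also below 1 TPM in every LEC control library and lower in every LEC-sorted library than the HaCa4 control mean. They stood in other orders, 2 above 1 above 3 for *Cxcl3* and *Mmp13* and 3 above 1 above 2 for *Tnfrsf9*. The share of the *Krt8* order among the 119 other listed LEC genes was not counted. Among those, LEC-sorted 2 was the highest for 47.9% and LEC-sorted 1 the lowest for 54.6%. The levels of the 72 genes in HaCa4 were not analysed here, so the part of RNA from HaCa4 in their rise was not tested. None of 7 leukocyte markers was listed for LECs.

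Some of the genes lie close to other listed genes. *1110008P14Rik*, on chromosome 2 from 32379101 to 32381915, lies 2.72 kb downstream of *Lcn2* on the same strand. *Slc25a25*, from 32414487 to 32451470, lies 26.7 kb from *Lcn2* on its other side. *Lcn2*, the iron-siderophore binding lipocalin 2, went from 1.20, 2.98 and 3.83 TPM to 443.26, 902.73 and 323.93 TPM, and *1110008P14Rik* from 47.79, 55.58 and 52.62 TPM to 87.70, 154.62 and 104.01 TPM. LEC-sorted 2 was the highest library for both, while LEC-sorted 1 was the highest for *Slc25a25*. *Errfi1* lies 51.3 kb from *Tnfrsf9*, *Timeless* 43.2 kb from *Il23a*, and *Crhbp* 182 kb from *Iqgap2*, and all of these were raised. The next closest listed neighbours were lower in LEC-sorted, *Ceacam1* 281 kb from *Pou2f2*, *Timp2* 331 kb from *Socs3* and *Kcnf1* 368 kb from *Odc1*. Among all 191 listed genes 63.9% were raised without overlap, and whether nearby genes changed together was not tested. In the RefSeq annotation 32 of the 72 genes overlap another gene, 10 of them a protein-coding one, among them *Cp* with *Hps3*, *Ptx3* with *Veph1* and *Cebpd* with *Spidr*. Whether the authors' counting used the strand is not given in the sources used here, so reads from overlapping genes may not be separated.

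Promoter sequence was not read in choosing the genes, but genes were also left out by name. Those genes, chemokines and NF-kappaB subunits among them, make up 36 of the 50 other raised LEC genes used for comparison below. A difference in motif shares between the 72 genes and the other raised ones may therefore follow from that choice by name, which was not tested. RefSeq promoters (GRCm38.p6), from 250 bases before to 50 after the start, were at hand for 56 of the 72 genes, with 67 promoters in all, and for 27025 genes as background. The kB motifs, bound by NF-kappaB, were searched as a narrow kB core and as a more permissive kB consensus, which overlap but do not contain each other. The other motifs were AP-1 (TGANTCA), C/EBP (TTGCNNAA), the cyclic AMP element CRE (TGACGTCA), the interferon element ISRE by its name, the antioxidant element (TGACNNNGC), the hypoxia element (ACGTG), the CArG box by its name, and the TATA box (TATAAA), all on both strands. A match describes the letters only and is not evidence of a bound site.

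Stretches around kB, C/EBP and CRE matches of 8 of the genes with values given above are shown as a selection, and matches were not ranked. Equally exact matches in other such genes are not shown, among them the CRE of *Slc25a25* and the kB consensus of *Bcl3* and *Ptx3*. Letters run 5′ to 3′ on the gene's strand, and capitals mark the motifs named next. For *Steap4* these are a kB core on the opposite strand followed by a C/EBP motif, and for *Neurl3* a kB core on the opposite strand. *Sod2* has a kB consensus on both strands, *Sdc4* a kB consensus on the gene's strand and *Ier3* a kB consensus on the opposite strand. For *Cp* and *Serpina3f* they are C/EBP motifs on the opposite strand, and for *Errfi1* a CRE and a TATA box. A TATA box on the opposite strand in the *Steap4* stretch and a hypoxia element that overlaps the CRE of *Errfi1* were not marked. The stretches are chr5:7960236-7960395 (+) for *Steap4*, chr1:36273516-36273545 (-) for *Neurl3*, chr17:13007746-13007775 (+) for *Sod2*, chr2:164443251-164443280 (-) for *Sdc4*, chr17:35821611-35821640 (+) for *Ier3*, chr3:19957169-19957198 (+) for *Cp*, chr12:104214384-104214534 (+) for *Serpina3f* and chr4:150855009-150855057 (+) for *Errfi1*. They lie before the start, those of *Neurl3* and *Cp* within an exon of another transcript of the same gene and that of *Steap4* over an exon of the non-coding *Gm30835*.
Steap4: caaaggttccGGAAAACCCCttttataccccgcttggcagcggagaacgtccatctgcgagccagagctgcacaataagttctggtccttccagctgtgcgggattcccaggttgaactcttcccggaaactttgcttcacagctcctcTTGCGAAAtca
Neurl3: gaggtcatggGGAAAGTCCCggatatcgtc
Sod2: cggggcggacGGGGTTCCCCgaggcggggc
Sdc4: agctttcccgGGGGAATTCCgggcggtgcg
Ier3: tgcgaagggcGGAGTTCCCCccggcccggc
Cp: ttagttactcTTTTGCAAcattaaattgtg
Serpina3f: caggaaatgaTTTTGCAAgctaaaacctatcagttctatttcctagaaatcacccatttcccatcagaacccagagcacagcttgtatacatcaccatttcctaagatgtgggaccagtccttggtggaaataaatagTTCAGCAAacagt
Errfi1: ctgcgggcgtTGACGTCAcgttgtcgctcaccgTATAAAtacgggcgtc

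The kB core was found in 2 of 56 genes (3.57%), *Steap4* and *Neurl3*, against 1.89% of all promoters, 11 of 39 (28.2%) of the other raised LEC genes and 3 of 50 (6%) of the lowered ones. The kB consensus was found in 9 of 56 genes (16.1%), against 9.55% of all promoters, 41.0% of the other raised genes and 22% of the lowered ones. These 9 genes were *Steap4*, *Ptx3*, *Bcl3*, *Neurl3*, *Ier3*, *Sod2*, *Sdc4*, *Dtwd1* and *Ivns1abp*. The C/EBP motif was found in 9 genes (16.1%), among them *Steap4*, *Cp*, *Ptx3* and *Serpina3f*, against 12.2% of all promoters, 23.1% of the other raised genes and 10% of the lowered ones. The AP-1 motif was found in 7 genes (12.5%), among them *Cp*, *Il13ra2*, *Sprr2b* and *Nts*, against 8.97% of all promoters, 28.2% of the other raised genes and 6% of the lowered ones.

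The TATA box was found in 16 of 56 genes (28.6%) against 15.7% of all promoters, 25.6% of the other raised genes and 8% of the lowered ones. With only the 250 bases before the start, these shares were 25%, 14.3%, 15.4% and 6%. A match was counted at any position in the window. The hypoxia element was also found in 16 genes (28.6%) against 21.8% of all promoters, 23.1% of the other raised genes and 32% of the lowered ones. *Errfi1* and *Slc25a25* were the 2 genes with a CRE (3.57%, all promoters 2.03%). The antioxidant element (10.7%, all promoters 14%), the ISRE (1.79%, all promoters 3.99%) and the CArG box (1.79%, all promoters 1.81%) were at or below the share of all promoters. No test was made of these shares, and no promoter entry was used for 16 genes, *Dcn*, *Cfb* and *Cebpd* among them.

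**Figure D5:**
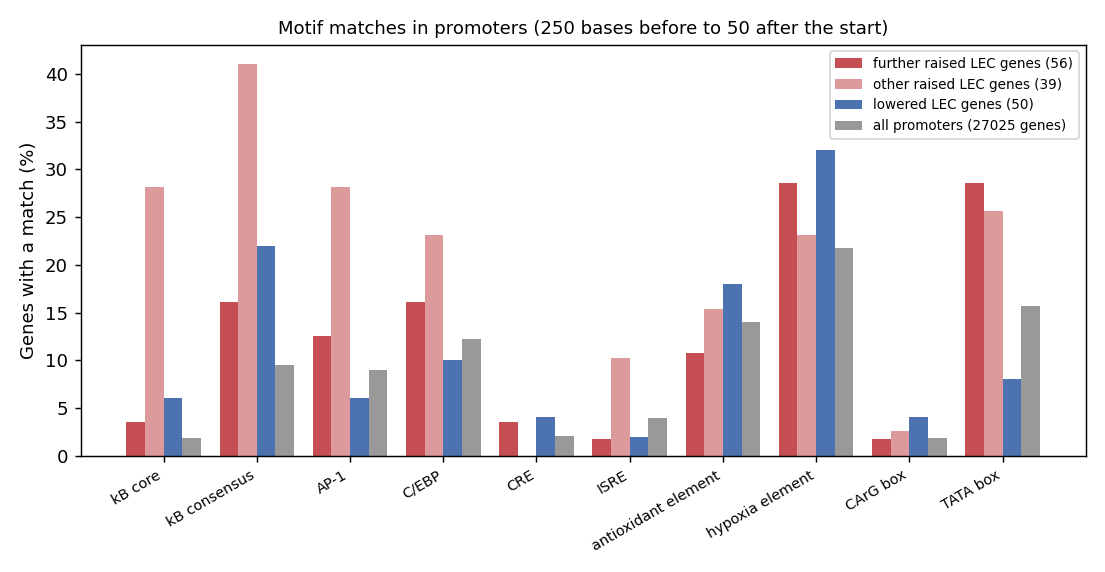
Share of genes (%) with at least 1 match of each of 10 motifs in a promoter, for the 56 of the 72 genes with a promoter entry, for 39 other raised and 50 lowered LEC genes, and for all 27025 genes. The bars of the 72 genes stand below those of the other raised genes for the kB core (3.57% against 28.2%) and the kB consensus (16.1% against 41.0%). In this window they stand near them for the TATA box (28.6% against 25.6%). The other raised genes were drawn from those left out by name and those also listed for HaCa4.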

How the data were processed

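Bulk RNA was sequenced from 11 libraries of mouse HaCa4 cells and LECs, and the 6 LEC libraries entered the comparison. The authors filtered reads with SOAPnuke 1.5.2, aligned them to GRCm38.p6 with HISAT2 2.0.4 and called differential expression with DESeq2, keeping genes for each cell line. The deposited values are TPM per gene and library with 2 decimals, without pooling. The tool that gave the TPM is not given in the sources used here. Depth is unknown, so precision rests on the spread between replicates.

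Groups followed the labels. Differences were taken on log2(TPM + 1), and standard errors came from limma 3.58.1 (R 4.3.3) with a mean-variance trend over all 191 listed LEC genes, after the step was tested on simulated data. A log2 difference on this scale understates the change of low genes. Since the genes were listed on these libraries and then chosen for a lack of overlap, the standard errors may be too small and the differences too large. The variance trend also came from the listed genes alone, so the standard errors say little of unlisted ones. Genes were matched by Entrez ID to RefSeq (72 of 72). Tables were made with pandas 2.3.3 and scipy 1.17.1 in Python 3.11.15 and figures with matplotlib 3.10.9.

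The genes and the functional lists were chosen with earlier results of these data known. Values in every library were given for the 12 genes with the largest log2 difference, the 6 with the largest rise in mean TPM and up to 4 per list. Those given for further genes were chosen after their values were seen, as were their groupings. The values of 1 of the 72 genes are not reported here. Alternatives were the pseudocount, scaling, filters on low TPM, a wider gap, medians, a replicate block and leaving out each library. Motifs were also counted without the 50 bases after the start.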

Additional observations from a re-analysis of the deposited data

How the results depend on the processing

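Depth limits these results to the spread between replicates. Leaving out a library can only loosen the choice of genes, so none of the 72 could be lost, and it gave 72 to 76 genes, the added ones being *Wfdc17*, *Padi3*, *Pitx1*, *Gm8210* and *Gm21451*, and gave a median log2 difference of 0.99 to 1.08. Requiring the lowest sorted library to be at least 1.5 times the highest control left 35 genes, and so did scaling the libraries to a common median over the listed genes, which lowered the median log2 difference from 1.04 to 0.49. That scaling rests on a list with more raised than lowered genes and shifted all listed genes by a median of -0.61. After it 69 genes stayed above 0 and 3 fell below it, *Slc2a1* (-0.05), *Lims1* (-0.09) and *Plekhm3* (-0.03). A mean of at least 1 or 10 TPM left 69 or 53 genes. A pseudocount of 5 gave a median of 0.81 and a pseudocount of 0.1 gave 1.16. For *Dcn* these gave 2.89 and 6.57 in place of 4.73. Without *Odc1* the summed level was 2551 TPM in LEC control and 5294 TPM in LEC-sorted.

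With the replicate number as a block the median SE was 0.25 against 0.24 without it, and 0.23 without the variance trend. The block lowered the SE of some genes, such as *Sprr2b* (0.60 to 0.26), and raised that of others, such as *Il13ra2* (0.26 to 0.31). Same-numbered libraries had deviations with correlations of 0.23, 0.07 and -0.02 across genes, and libraries of different numbers had -0.18 to 0.15. These values cannot settle whether same-numbered libraries belong together, and the sources used here do not say.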
